A study of Mus musculus with 6 samples.

Results

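Oligodendrocytes are the glial cells that wrap central axons in myelin, and the 32 genes described here encode proteins of the myelin sheath, the enzymes and carriers of the cells that make it, and the transcription factors of their lineage. The members are a list of gene names, with no threshold on their values, but chosen with earlier results of these data known. Counts of members beside shares of all genes are therefore not independent of the data. All 32 had 1 row each among the 53858 genes of the table. The RNA came from pools of picked motor neurons of the mouse spinal cord, not from sorted glia. All were from wild-type (WT) mice whose sciatic nerve had been crushed, and were collected on day 6. All animals received 2 retrograde membrane dyes, DiO into the proximal nerve on day 0, which stains every injured motor neuron, and DiI into the distal nerve on day 2. Double-labelled pools (3 libraries) held motor neurons with DiO and DiI, so that their regrowing axons had met the distal dye. DiO-only pools (3 libraries) held injured motor neurons that carried DiO but no DiI. Each pool was 10 to 15 fluorescent cells picked singly, with the lysis step allowing up to 20, while strain, sex and age are not stated. No label ties a pool to its own animal, and p-values therefore rest on a spread between pools that may be technical.

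Oligodendrocyte precursors divide and then leave the cell cycle under the transcription factors Olig1, Olig2 and Sox10, and Myrf switches on the myelin genes. Mature cells extend sheets of membrane that are zipped together on their inner faces by myelin basic protein, joined by tight junctions, and held to the axon by adhesion proteins. *Mbp* and *Mobp* mRNA is carried into the processes and translated at the sheath, so these transcripts lie partly away from the cell body. In the spinal cord, oligodendrocyte cell bodies and myelin lie directly against motor neurons. In such pools, a larger number of oligodendrocytes or more myelin taken up with the neurons and more RNA of these genes per cell cannot be told apart.

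Total counts ran from 2997714 to 6563403 in double-labelled libraries and from 3747145 to 6505086 in DiO-only libraries. With those totals 3 counts, used here as the limit that a count of 0 allows, correspond to 0.457 to 1.00 CPM (counts of a gene per 1000000 counts of its library), which covers counting error only. From 15657 to 16467 genes had at least 1 count in double-labelled libraries, against 17229 to 22118 in DiO-only libraries, with no overlap. The number of members detected overlapped: 27 to 32 of the 32 had a count in double-labelled libraries and 28 to 30 in DiO-only libraries. Mitochondrially encoded genes took 4.03, 18.0 and 6.13% of the counts of double-labelled pools 1, 2 and 3, against 3.96, 10.8 and 5.06% in DiO-only pools 1, 2 and 3. The part of these differences in the results was not tested.

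The summed level of the 32 members was higher in every double-labelled library than in any DiO-only library. It stood at 3431, 1609 and 6034 CPM of total counts in double-labelled pools 1, 2 and 3, against 1002, 317 and 902 CPM in DiO-only pools 1, 2 and 3. The mean was 3691 ± 2224 CPM in double-labelled pools and 740 ± 370 CPM in DiO-only pools (SD, n = 3 each), a ratio of 4.99. Most of the difference was *Mbp*. Without it the sum was 1146, 873 and 1589 CPM in double-labelled pools, against 584, 203 and 527 CPM in DiO-only pools, a ratio of means of 2.75. The lowest double-labelled library still stood above the highest DiO-only library. Double-labelled pool 3 held the most, and without it the ratio of means over all members was 3.40. A sum over the members was given no test.

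**Figure D1:**
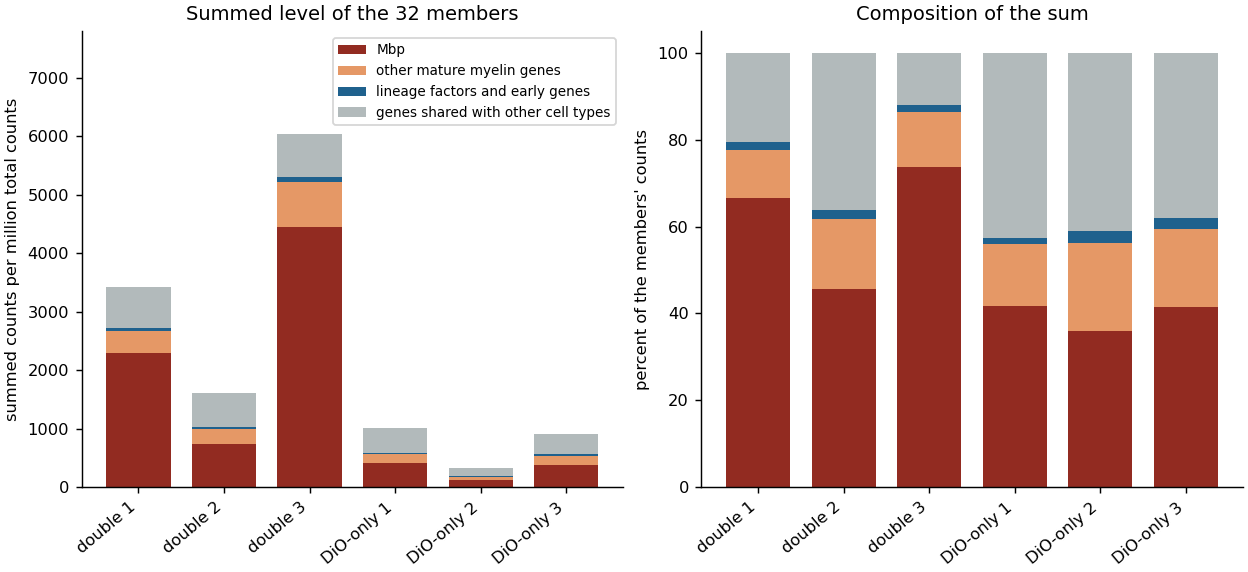
Summed level of the 32 members in each library, in CPM of total counts (left), and the share of each class in the members' counts, in percent (right). Bars are single libraries, 3 double-labelled on the left and 3 DiO-only on the right of each panel. The double-labelled sums run from 1609 to 6034 and the DiO-only sums from 317 to 1002, and *Mbp* takes 45.7 to 73.7% of the members' counts in double-labelled libraries and 36.0 to 41.8% in DiO-only libraries.

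Gene by gene, the comparison asks which of these transcripts differ between double-labelled and DiO-only pools. The dyes divide the motor neurons by whether they carried DiI, and the counts do not measure regenerative ability. Of the 32 members 26 passed the filter on low counts and were tested in the fit of 12954 genes. *Gjb1*, *Fa2h*, *Aspa*, *Trf*, *Olig2* and *Enpp6* did not pass. *Sox10* and *Lpar1* passed through the double-labelled libraries alone, so a difference was built into their selection, and counts are given with and without them. *Mog* and *Ppp1r14a* had 3 double-labelled libraries and 1 DiO-only library over the filter. *Mal*, *Olig1*, *Enpp2* and *Hapln2* had 3 and 2, *Myrf* had 2 and 1, and *Gsn* and *Tspan2* had 2 and 3. These members stay in both counts, which are thus not free of such selection. With edgeR's quasi-likelihood test and Benjamini-Hochberg adjustment over all genes, 0 members had an adjusted p under 0.05, against 0.00% of all tested genes. DESeq2 without that filter called *Mbp* (adjusted p = 2.1e-05), *Mobp* (adjusted p = 6.8e-05) and *Ptgds* (adjusted p = 0.00192), all higher, where it called 0.492% of all genes and 0.256% higher. edgeR without the filter called these 3 and *Apod* (adjusted p = 0.0220), where it called 0.277% of all genes and 0.151% higher. With the replicate numbers as a block edgeR called 0.178% of all genes, 0.0926% higher, and 3 members. Limma voom with sample quality weights called 0.

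Of the 26 tested members, 25 had a log2 fold change above 0 in double-labelled over DiO-only pools, as had 51.3% of all tested genes. Only 12 members exceeded the filter's level in every library, so these counts describe the members that passed it and no others. At an unadjusted edgeR p under 0.05 there were 14 higher members, where 3.18% of all tested genes were higher, and 1 lower member, *Ndrg1*, where 2.63% were lower. Without *Sox10* and *Lpar1* there were 12 higher members of 24. By role and without those genes, 7 of 11 tested sheath proteins, 2 of 5 enzymes, 2 of 6 carriers, cytoskeletal and signalling genes and 1 of 2 transcription factors were higher at that p. Above a log2 fold change of 2 were 11 members, 9 without *Sox10* and *Lpar1*, against 1.79% of all tested genes. The groups did not overlap upward for 15 members, 13 without those genes, against 5.86% of all tested genes, and downward for 1, against 7.07%. The median log2 fold change of the tested members was 1.69, or 1.47 without those genes, and that of all tested genes was 0.02. The number at an unadjusted p under 0.05 was 9 without double-labelled pool 3, 8 without DiO-only pool 2 and 9 without DiO-only pool 3. Under the 3 other scalings of the libraries no tested member changed its sign.

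**Figure D2:**
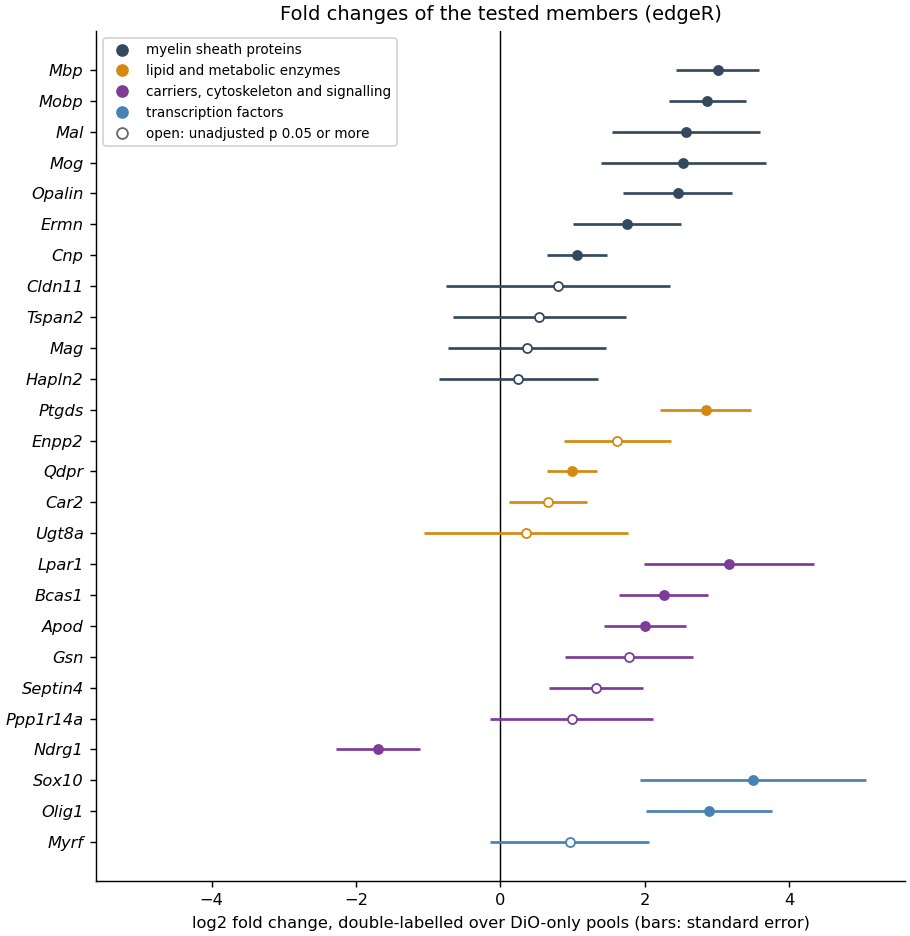
Fold changes of the 26 tested members, on the log2 scale with standard errors, for double-labelled over DiO-only pools, grouped by role. Filled points have an unadjusted edgeR p under 0.05; 25 of the 26 lie right of 0 and only *Ndrg1* lies left of it, at -1.69.

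Among the myelin sheath proteins, *Mbp* and *Mobp* had the largest fold changes. *Mbp* encodes myelin basic protein, which closes the inner membrane faces of compact myelin (ENSMUSG00000041607; mm10 chromosome 18, 82475146 to 82585637, plus strand). Its level, in CPM scaled with TMM factors as for every single gene here, was 2339, 807 and 3909 in double-labelled pools 1, 2 and 3, against 397, 143 and 335 in DiO-only pools 1, 2 and 3. Every double-labelled library stood above every DiO-only library, and double-labelled pool 2 was nearest to them. The log2 fold change was 3.01 ± 0.58 (SE; edgeR adjusted p = 0.357), and it ran from 2.42 to 3.41 when each library was left out in turn. *Mobp*, of another small basic protein of compact myelin (ENSMUSG00000032517; chromosome 9, 120149707 to 120181484, plus strand), had 218, 92.2 and 452 CPM in double-labelled pools, against 26.1, 31.4 and 46.9 CPM in DiO-only pools. The order of the double-labelled libraries was that of *Mbp*, with pool 3 highest and pool 2 lowest. Its log2 fold change was 2.87 ± 0.53 (SE; edgeR adjusted p = 0.357).

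*Cnp*, of a cyclic nucleotide phosphodiesterase that keeps cytoplasmic channels in myelin open, stood at 74.6, 73.9 and 137 CPM in double-labelled pools 1, 2 and 3, against 57.9, 25.1 and 53.3 CPM in DiO-only pools. The groups did not overlap, and the log2 fold change was 1.06 ± 0.41 (SE; edgeR adjusted p = 0.742). Another 4 sheath genes also had groups that did not overlap. *Mal*, of a small membrane proteolipid of compact myelin, ran from 16.1 to 28.1 CPM in double-labelled pools and from 0 to 6.27 CPM in DiO-only pools. *Opalin*, of an oligodendrocyte membrane glycoprotein, ran from 6.70 to 26.7 CPM in double-labelled pools and from 2.58 to 4.68 CPM in DiO-only pools. *Ermn*, of the cytoskeletal protein ermin, ran from 5.86 to 17.3 CPM in double-labelled pools and from 3.06 to 4.64 CPM in DiO-only pools. *Mog*, of a glycoprotein on the outermost face of the sheath, ran from 3.35 to 12.9 CPM in double-labelled pools and from 0.516 to 2.48 CPM in DiO-only pools. Their log2 fold changes lay between 1.75 and 2.57 (edgeR adjusted p from 0.617 to 0.851).

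The promoter of *Mobp* is shown with those of *Opalin* and *Mag* because these 3 genes share a SOX letter motif. The groups did not overlap for *Mobp* and *Opalin*, and they overlapped for *Mag*. The sequences are the 250 bases before the RefSeq gene start on GRCm38.p6, 5′ to 3′ on the gene's strand, with capitals for matches to a motif on either strand. They lie at chr9:120149492-120149741 (plus strand) for *Mobp*, chr19:41077114-41077363 (minus strand) for *Opalin* and chr7:30914864-30915113 (minus strand) for the first listed of 3 *Mag* windows.
Mobp: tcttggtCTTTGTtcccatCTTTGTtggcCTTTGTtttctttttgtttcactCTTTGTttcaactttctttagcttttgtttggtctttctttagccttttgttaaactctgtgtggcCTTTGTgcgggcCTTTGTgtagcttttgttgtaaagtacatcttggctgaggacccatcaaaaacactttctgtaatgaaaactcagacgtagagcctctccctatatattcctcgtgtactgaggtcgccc
Opalin: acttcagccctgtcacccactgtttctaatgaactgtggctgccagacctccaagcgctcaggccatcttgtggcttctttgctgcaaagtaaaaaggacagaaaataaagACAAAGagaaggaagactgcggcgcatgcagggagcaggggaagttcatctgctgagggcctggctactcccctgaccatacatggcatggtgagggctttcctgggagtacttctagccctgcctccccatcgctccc
Mag: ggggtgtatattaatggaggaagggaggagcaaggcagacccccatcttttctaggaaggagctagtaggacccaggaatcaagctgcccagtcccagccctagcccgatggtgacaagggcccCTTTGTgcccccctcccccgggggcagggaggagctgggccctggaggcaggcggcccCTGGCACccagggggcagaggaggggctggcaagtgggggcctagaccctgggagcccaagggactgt
In the *Mobp* window the capitals mark 6 copies of CTTTGT, the reverse strand of ACAAAG, the letters of a SOX binding motif, and 1 of the 32851 promoter windows in the table held 6 or more copies, that of *Mobp* itself. *Opalin* has 1 copy, ACAAAG. The *Mag* window shown has 1 copy, as CTTTGT, and 1 match to the MYRF letters, CTGGCAC. Another *Mag* window, at chr7:30914322-30914571, has neither. The window of *Ermn*, whose groups also did not overlap, has no match to the motifs named here. RefSeq windows were found for 22 members, 35 windows in all, some of them overlapping windows of the same gene. Of these 34.3% held ACAAAG on either strand, against 16.5% of all windows. The letters AACAAT, another SOX motif, were in 17.1% against 9.42%, CTGGCAC or CTGGTAC in 17.1% against 5.93%, and the E-box CAGCTG in 17.1% against 13.0%. These are matches of letters and not measured binding sites.

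The remaining sheath genes did not separate the groups. *Mag*, of the adhesion protein on the axonal side of the sheath, had 2.47, 22.3 and 1.47 CPM in double-labelled pools 1, 2 and 3, against 11.7, 1.67 and 6.36 CPM in DiO-only pools 1, 2 and 3. One library, double-labelled pool 2, held most of it in its group, and its log2 fold change of 0.37 ± 1.10 (SE; edgeR adjusted p = 0.987) was -1.76 without that library. *Hapln2*, of a matrix link protein at nodes of Ranvier, ran from 5.12 to 15.3 CPM in double-labelled pools and from 0 to 16.5 CPM in DiO-only pools. *Cldn11*, of the tight junction protein of myelin, had 0, 12.8 and 2.55 CPM in double-labelled pools and 0.292, 4.68 and 3.78 CPM in DiO-only pools. The tetraspanin gene *Tspan2* ran from 0.402 to 10.2 CPM in double-labelled pools and from 2.63 to 4.64 CPM in DiO-only pools. *Gjb1*, of a gap junction protein, had 0, 4 and 0 counts in double-labelled pools 1, 2 and 3, against 7, 0 and 11 counts in DiO-only pools. For the 4 of these that were tested, standard errors of 1.10 to 1.55 on the log2 scale exceeded the fold changes.

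**Figure D3:**
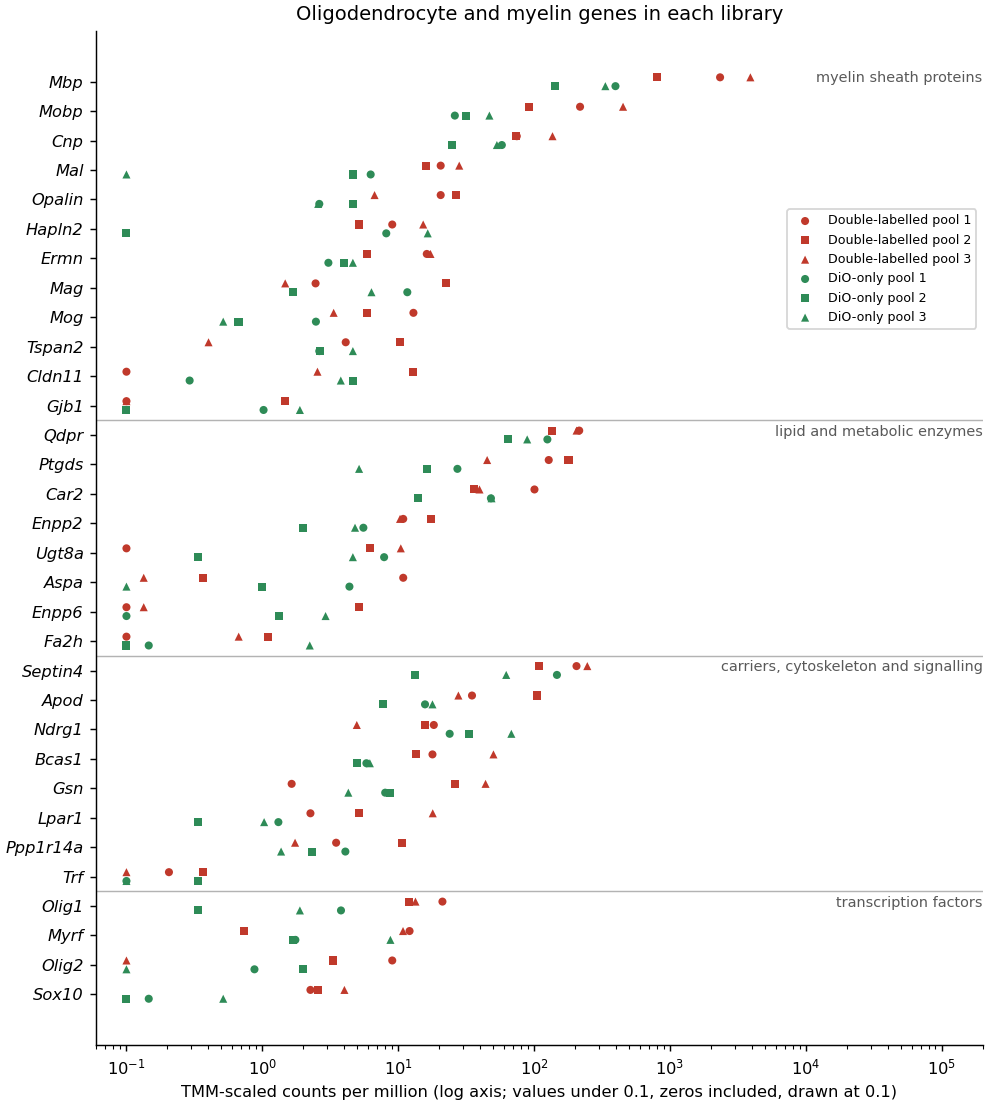
Level of each of the 32 members in each library, in TMM-scaled CPM on a log axis, grouped by role; values under 0.1 are drawn at 0.1. Each point is a library, and the 3 red double-labelled points lie right of the 3 green DiO-only points for *Mbp*, *Mobp*, *Cnp*, *Qdpr*, *Ptgds*, *Olig1* and *Sox10*, among others, and left of them for *Ndrg1*.

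Among the enzymes, *Qdpr* and *Ptgds* had groups that did not overlap and an unadjusted p under 0.05. *Qdpr* encodes dihydropteridine reductase, which recycles the cofactor tetrahydrobiopterin, and is used by neurons as well (chromosome 5, 45434021 to 45450236, minus strand). It had 215, 135 and 206 CPM in double-labelled pools 1, 2 and 3, against 125, 64.5 and 89.0 CPM in DiO-only pools. The margin was narrow, with 135 CPM as the lowest double-labelled and 125 CPM as the highest DiO-only value, and the log2 fold change was 0.99 ± 0.35 (SE; edgeR adjusted p = 0.703). An antisense gene, *Gm42413*, covers 18.6% of the exon bases of *Qdpr*, and since the strand setting of the counting is not given, reads there cannot be told apart. *Ptgds*, of the prostaglandin D synthase made by oligodendrocytes and by the meninges (chromosome 2, 25466709 to 25470046, minus strand), had 128, 179 and 45.2 CPM in double-labelled pools, against 27.3, 16.4 and 5.16 CPM in DiO-only pools. Here double-labelled pool 2 was highest and pool 3 lowest, the reverse of *Mbp*. The log2 fold change was 2.84 ± 0.63 (SE; edgeR adjusted p = 0.390).

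*Car2*, of a carbonic anhydrase, stood at 101, 35.9 and 39.7 CPM in double-labelled pools 1, 2 and 3, against 48.1, 14.0 and 48.6 CPM in DiO-only pools. Its groups overlapped, and double-labelled pool 1 alone lay above all DiO-only libraries (log2 fold change 0.66 ± 0.54, SE; edgeR adjusted p = 0.961). *Enpp2* encodes autotaxin, which makes the signalling lipid lysophosphatidic acid, and ran from 10.3 to 17.6 CPM in double-labelled pools and from 2.00 to 5.54 CPM in DiO-only pools without overlap (edgeR adjusted p = 0.860). The enzymes of myelin lipids were scarce. *Ugt8a*, which makes galactosylceramide, had 0, 17 and 78 counts in double-labelled pools 1, 2 and 3 and 54, 1 and 27 counts in DiO-only pools. *Fa2h*, which hydroxylates the fatty acids of these lipids, had 0, 3 and 5 counts in double-labelled pools and 1, 0 and 13 counts in DiO-only pools. *Aspa*, which releases acetate from N-acetylaspartate, had 53, 1 and 1 counts in double-labelled pools and 30, 3 and 0 counts in DiO-only pools. *Enpp6*, of a choline phosphodiesterase of newly formed oligodendrocytes, had 0, 14 and 1 counts in double-labelled pools and 0, 4 and 17 counts in DiO-only pools. For the last 3 of these genes no difference was detectable at this depth.

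The carriers, cytoskeletal and signalling genes included *Ndrg1*, the only tested member with a log2 fold change below 0. *Septin4*, of a filament-forming septin of myelin and neurons, had 205, 109 and 247 CPM in double-labelled pools 1, 2 and 3, against 147, 13.4 and 62.4 CPM in DiO-only pools, and overlapped through DiO-only pool 1. *Apod*, of the lipid carrier apolipoprotein D, had 34.9, 106 and 27.7 CPM in double-labelled pools, against 15.8, 7.68 and 17.9 CPM in DiO-only pools. Its groups did not overlap and, as for *Ptgds*, pool 2 was the highest double-labelled library (log2 fold change 2.00 ± 0.57, SE; edgeR adjusted p = 0.613). *Bcas1*, of a protein that marks oligodendrocytes starting to myelinate, ran from 13.5 to 50.2 CPM in double-labelled pools and from 5.01 to 6.19 CPM in DiO-only pools. Its groups did not overlap, and the difference of 2.26 ± 0.62 (SE) on the log2 scale had an edgeR adjusted p of 0.569. An antisense gene, *Bcas1os1*, overlaps 12.6% of the exon bases of *Bcas1*. The largest overlap was also antisense for *Ndrg1* (*Gm17035*), *Olig1* (*Gm15966*), *Ermn* (*Galnt5*), *Enpp2* (*Gm26684*), *Cnp* (*Dnajc7*) and *Tspan2* (*Tspan2os*). From 1.85 to 8.43% of their exon bases were shared, and reads there cannot be told apart either. *Ndrg1*, of a stress-responsive protein also found in myelinating glia, had 18.3, 15.7 and 4.96 CPM in double-labelled pools, against 23.9, 33.1 and 68.0 CPM in DiO-only pools. All double-labelled values lay below all DiO-only values, a log2 fold change of -1.69 ± 0.59 (SE; edgeR adjusted p = 0.692).

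*Lpar1*, a receptor for lysophosphatidic acid, had 11, 14 and 134 counts in double-labelled pools 1, 2 and 3 and 9, 1 and 6 counts in DiO-only pools, so most of its double-labelled counts came from pool 3. *Gsn*, of the actin-severing protein gelsolin, had 1.64, 26.0 and 44.0 CPM in double-labelled pools and 8.02, 8.69 and 4.30 CPM in DiO-only pools. It was highest in double-labelled pools 2 and 3 and lowest in double-labelled pool 1, so the groups overlapped. *Ppp1r14a*, of a protein phosphatase inhibitor, ran from 1.74 to 10.6 CPM in double-labelled pools and from 1.37 to 4.08 CPM in DiO-only pools. *Trf*, of the iron carrier transferrin, which mature oligodendrocytes make in quantity, had 1, 1 and 0 counts in double-labelled pools and 0, 1 and 0 counts in DiO-only pools. In GENCODE M21 63.5% of its exon bases are shared with *Gm20425*, a gene on the same strand that was not analysed here. Whether reads of *Trf* were dropped there was not tested.

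The 4 transcription factors were at low levels in all libraries. *Olig1* had 21.2, 12.1 and 13.4 CPM in double-labelled pools 1, 2 and 3, against 3.79, 0.334 and 1.89 CPM in DiO-only pools, without overlap (log2 fold change 2.89 ± 0.87, SE; edgeR adjusted p = 0.617). *Sox10* had 2.26, 2.56 and 4.02 CPM in double-labelled pools and 0.146, 0 and 0.516 CPM in DiO-only pools. Behind these are 11, 7 and 30 counts in double-labelled pools, against 1, 0 and 3 counts in DiO-only pools, so the DiO-only values are at or under the limit that a count of 0 allows. *Olig2* had 44, 9 and 0 counts in double-labelled pools and 6, 6 and 0 counts in DiO-only pools. *Myrf* had 12.1, 0.732 and 10.9 CPM in double-labelled pools, against 1.75, 1.67 and 8.76 CPM in DiO-only pools. *Olig1* and *Sox10* separated the groups, while *Olig2* and *Myrf* overlapped.

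Sorted by stage, mature myelin genes made up more of the members' counts in double-labelled pools, and most of that was *Mbp*. The 15 mature genes took 77.7, 61.6 and 86.4% of the members' counts in double-labelled pools 1, 2 and 3, against 56.1, 56.3 and 59.5% in DiO-only pools. The 95% Wilson intervals reach at most 2.82 points either way and cover counting error only. Those of double-labelled pool 2 (60.3 to 63.0%) and DiO-only pool 3 (58.1 to 60.9%) overlap. The mean share was 75.2 ± 12.6% in double-labelled pools and 57.3 ± 1.92% in DiO-only pools (SD, n = 3 each). Without *Mbp* the share was 33.2, 29.3 and 48.4% in double-labelled pools, against 24.6, 31.7 and 30.7% in DiO-only pools, and the groups overlapped. The 6 lineage factors and early genes took 1.78, 2.12 and 1.48% of the members' counts in double-labelled pools, against 1.30, 2.61 and 2.52% in DiO-only pools, again with overlap. The summed mature genes had 43.7, 29.1 and 58.3 counts per count of the lineage and early genes in double-labelled pools, against 43.0, 21.6 and 23.6 in DiO-only pools. Without *Mbp* this ratio was 6.22, 7.52 and 8.60 in double-labelled pools, against 11.0, 7.77 and 7.14 in DiO-only pools. Mature and early genes were thus both higher in double-labelled pools, without overlap. The mature genes summed to 2957 ± 2126 CPM in double-labelled pools and 426 ± 215 CPM in DiO-only pools, and the lineage and early genes to 61.5 ± 27.7 CPM in double-labelled pools and 14.7 ± 7.35 CPM in DiO-only pools (SD, n = 3 each).

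Set against *Mbp* in the same library, the ratios of the other members varied between libraries. For most tested members they overlapped between the groups. *Mobp* had 9.32, 11.4 and 11.6 counts per 100 *Mbp* counts in double-labelled pools 1, 2 and 3, against 6.57, 22.0 and 14.0 in DiO-only pools, with overlap. *Cnp* had 3.19, 9.16 and 3.50 per 100 in double-labelled pools, against 14.6, 17.5 and 15.9 in DiO-only pools. *Qdpr* had 9.19, 16.7 and 5.26 per 100 in double-labelled pools, against 31.5, 45.1 and 26.6 in DiO-only pools. *Car2* had 4.30, 4.44 and 1.01 per 100 in double-labelled pools, against 12.1, 9.81 and 14.5 in DiO-only pools. *Cnp*, *Qdpr*, *Car2*, *Ermn* and *Ndrg1* had lower ratios in all double-labelled libraries than in any DiO-only library. That is 5 of the 25 tested members besides *Mbp*, and 0 had higher ratios without overlap. Of all other tested genes 77.6% had lower ratios without overlap, since any gene that moved less than *Mbp* gives a lower ratio. Of the 5 members, *Qdpr*, *Car2* and *Ndrg1* were not sorted with the mature myelin genes. Per kilobase of exon, *Mbp* stood at 278 ± 183 CPM in double-labelled pools and 34.4 ± 15.6 CPM in DiO-only pools (SD, n = 3 per group). *Qdpr* stood at 103 ± 24.5 CPM per kilobase in double-labelled pools and 52.0 ± 17.1 in DiO-only pools. The highest member per kilobase was *Mbp* in double-labelled pools 1 and 3, *Ptgds* in double-labelled pool 2 and *Qdpr* in each DiO-only pool. The length here is the union of all annotated exons of a gene, 8.47 kb for *Mbp*, 1.79 kb for *Qdpr* and 1.65 kb for *Ptgds*. A single transcript can be shorter than that union, so the order depends on the length chosen.

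The double-labelled pools differed in which members were high. Of the 26 tested members 12 had their highest double-labelled value in pool 3, 8 in pool 2 and 6 in pool 1. Pool 3 led for *Mbp*, *Mobp*, *Cnp*, *Mal*, *Ermn*, *Bcas1*, *Lpar1* and *Gsn*. Pool 2, the library of fewest counts, led for *Ptgds*, *Apod*, *Opalin*, *Enpp2*, *Mag*, *Cldn11*, *Tspan2* and *Ppp1r14a*, although it had the lowest double-labelled *Mbp*. Pool 1 led for *Olig1*, *Mog*, *Myrf*, *Qdpr* and *Car2*, and it had 0 counts of *Cldn11* and *Ugt8a*. In the DiO-only group pool 2 had the lowest *Mbp*, *Cnp*, *Qdpr*, *Septin4*, *Car2*, *Apod* and *Olig1*, and 0 counts of *Hapln2*.

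**Figure D4:**
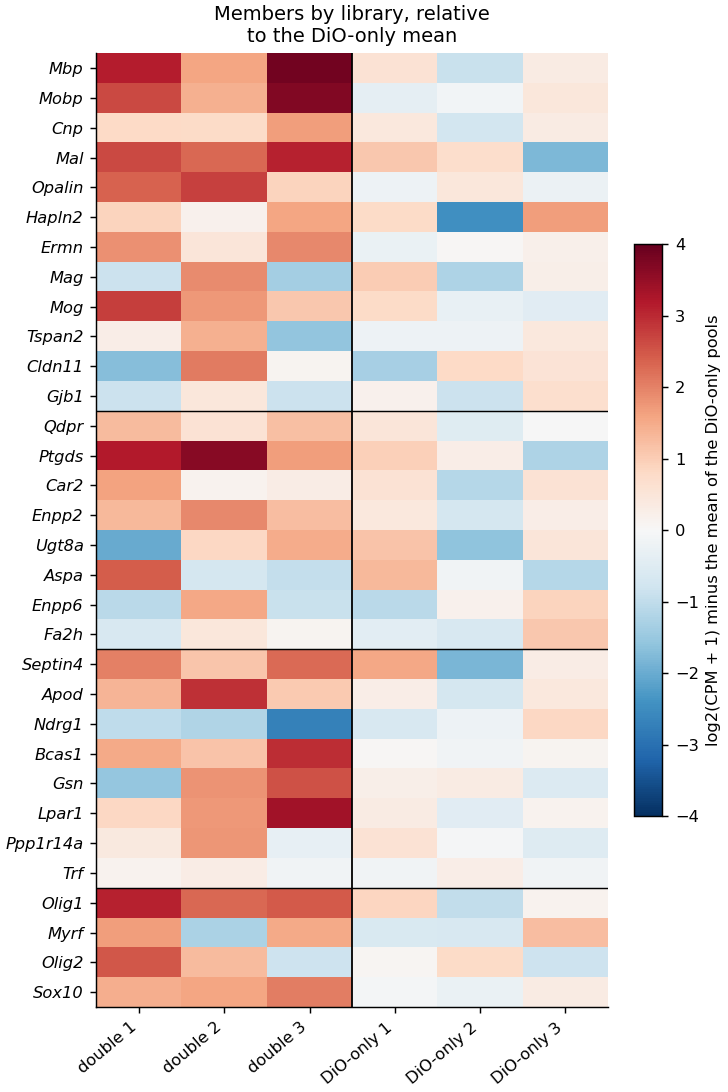
Members by library, as log2(CPM + 1) minus the mean of the 3 DiO-only pools, with the double-labelled pools on the left. Red is above and blue below the DiO-only mean; *Mbp* and *Mobp* are darkest in double-labelled pool 3, while *Ptgds*, *Apod* and *Opalin* are darkest in double-labelled pool 2.

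Of 36 other oligodendrocyte genes, 27 were tested and 0 passed over all genes. Of these 6 were higher at an unadjusted edgeR p under 0.05 and 0 were lower. Of all tested genes 3.18% were higher and 2.63% lower at that p. A log2 fold change above 0 was found for 19 of 27, against 51.3% of all tested genes, and below 0 for 8. The median was 0.83, against 0.02 over all tested genes. The 36 genes summed to 1047, 1057 and 1812 CPM of total counts in double-labelled pools 1, 2 and 3. In DiO-only pools they summed to 888, 571 and 958 CPM, without overlap and at a ratio of means of 1.62. The genes named next were all higher. *Plekhb1*, of a membrane-bound protein of myelinating glia and sensory cells, had 196, 61.5 and 210 CPM in double-labelled pools 1, 2 and 3, against 31.8, 13.4 and 41.6 CPM in DiO-only pools. *Cryab*, of a small heat shock protein of oligodendrocytes, ran from 93.0 to 145 CPM in double-labelled pools and from 52.6 to 60.8 CPM in DiO-only pools. *Gatm*, of creatine synthesis, had 57.8 CPM in double-labelled pool 3 and 4.03 to 14.0 CPM in the other double-labelled pools, with overlap with DiO-only pools at 4.81 to 6.87 CPM.

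The defining markers of oligodendrocyte precursors were near the limit of detection. Of 14 genes 5 were tested, 0 at an unadjusted p under 0.05 in either direction in edgeR, and 0 passed over all genes. *Gpr17*, *C1ql1* and *Olig3* had 0 counts in all libraries, *Pdgfra*, the growth factor receptor of precursors, reached 0.732 CPM in double-labelled pools and 1.37 CPM in DiO-only pools, and *Cspg4* reached 0.205 CPM in double-labelled pools and was at 0 CPM in DiO-only pools. *Ptprz1*, of a receptor phosphatase of precursors and astrocytes, ran from 10.9 to 20.5 CPM in double-labelled pools and from 1.67 to 8.61 CPM in DiO-only pools. *Tnr*, of a matrix protein that neurons also express, ran from 45.0 to 61.8 CPM in double-labelled pools and from 29.7 to 50.4 CPM in DiO-only pools. The list summed to 87.7 to 129 CPM of total counts in double-labelled pools and 53.1 to 107 CPM in DiO-only pools, which overlap.

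Of 12 astrocyte genes 10 were tested, 8 with a log2 fold change above 0 and 2 below, where 51.3% of all tested genes were above 0. The median was 2.49, against 1.69 for the 26 tested members and 0.02 over all tested genes. Above a log2 fold change of 2 were 6 of the 10, against 11 of the 26 members and 1.79% of all tested genes. At an unadjusted edgeR p under 0.05, 6 were higher and 0 lower, and 0 passed over all genes. Of all tested genes 3.18% were higher and 2.63% lower at that p. *Fgfr3*, a growth factor receptor of astrocytes, had 14.6, 10.2 and 43.1 CPM in double-labelled pools 1, 2 and 3, against 2.04, 0 and 3.61 CPM in DiO-only pools. *Slc1a2*, of the main astrocytic glutamate transporter, had 93.3, 39.9 and 84.7 CPM in double-labelled pools, against 10.7, 15.0 and 14.3 CPM in DiO-only pools. *Atp1b2*, of a sodium pump subunit, ran from 19.0 to 99.6 CPM in double-labelled pools and from 3.94 to 6.01 CPM in DiO-only pools. *Aqp4*, of the water channel of astrocyte endfeet, ran from 17.6 to 32.4 CPM in double-labelled pools and from 1.00 to 8.76 CPM in DiO-only pools. For all 4 genes the groups did not overlap. In the list, 5 of the 10 tested genes had no overlap upward, against 5.86% of all tested genes. *Aldh1l1*, of a folate enzyme of astrocytes, ran from 0 to 14.6 CPM in double-labelled pools and from 1.31 to 52.6 CPM in DiO-only pools, with a log2 fold change of -1.27. *S100b*, of a calcium-binding protein, had 348, 594 and 345 CPM in double-labelled pools, against 264, 907 and 236 CPM in DiO-only pools, with a log2 fold change of -0.13. Both overlapped. The summed astrocyte list ran from 974 to 2281 CPM of total counts in double-labelled pools and from 976 to 1081 CPM in DiO-only pools, where *Aldoc* and *S100b* took most of the counts. Without these 2 genes it stood at 269, 107 and 509 CPM in double-labelled pools, against 34.4, 28.6 and 147 CPM in DiO-only pools. The groups overlapped in that sum, with 107 CPM in double-labelled pool 2 and 147 CPM in DiO-only pool 3. Among double-labelled pools, pool 3 was highest and pool 2 lowest in it, as for *Mbp*. Among DiO-only pools, pool 2 was lowest for both, but pool 3 was highest for the sum and pool 1 for *Mbp*. The part of astrocyte material in the difference of the myelin genes was not tested.

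The summed lists of microglia, endothelium, Schwann cells, meninges and motor neurons overlapped between the groups. The microglia list summed to 73.7, 45.4 and 150 CPM in double-labelled pools, against 90.9, 76.1 and 104 CPM in DiO-only pools, with 0 of 5 tested genes at an unadjusted edgeR p under 0.05. *Csf1r*, a growth factor receptor of microglia, ran from 14.6 to 16.6 CPM in double-labelled pools and from 23.8 to 28.4 CPM in DiO-only pools, lower without overlap. Endothelial and pericyte markers summed to 1.67 to 11.4 CPM in double-labelled pools and 8.15 to 54.1 CPM in DiO-only pools. Of 3 tested genes, 1 was lower at that p, where 2.63% of all tested genes were lower. That gene was *Ly6c1*, of a surface protein of endothelium, with 0 to 1.47 CPM in double-labelled pools and 3.65 to 15.4 CPM in DiO-only pools. In the Schwann cell list, *Pmp22* made up most of the sum of 463 to 818 CPM in double-labelled pools and 562 to 938 CPM in DiO-only pools. The meningeal fibroblast list, of cells that also make *Ptgds* and *Apod*, summed to 314, 17.7 and 13.1 CPM in double-labelled pools and 104, 157 and 197 CPM in DiO-only pools. *Dcn*, of the matrix protein decorin and the only gene of the list that was tested, took most of it, with 321, 10.6 and 7.24 CPM in double-labelled pools, against 97.6, 192 and 161 CPM in DiO-only pools. The other genes summed to 0, 8.01 and 4.88 CPM in double-labelled pools and 1.38, 3.20 and 16.2 CPM in DiO-only pools. The motor neuron list, whose 8 genes were all tested, summed to 3663, 4163 and 5913 CPM in double-labelled pools and 5591, 3747 and 4112 CPM in DiO-only pools, so that the oligodendrocyte members were at 1609 to 6034 CPM beside a motor neuron sum that overlapped between the groups. Of its genes 1 was higher at an unadjusted edgeR p under 0.05, where 3.18% of all tested genes were higher. That gene was *Chodl*, a marker of fast motor neurons. It had 479, 1140 and 321 CPM in double-labelled pools, against 173, 167 and 235 CPM in DiO-only pools, without overlap.

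**Figure D5:**
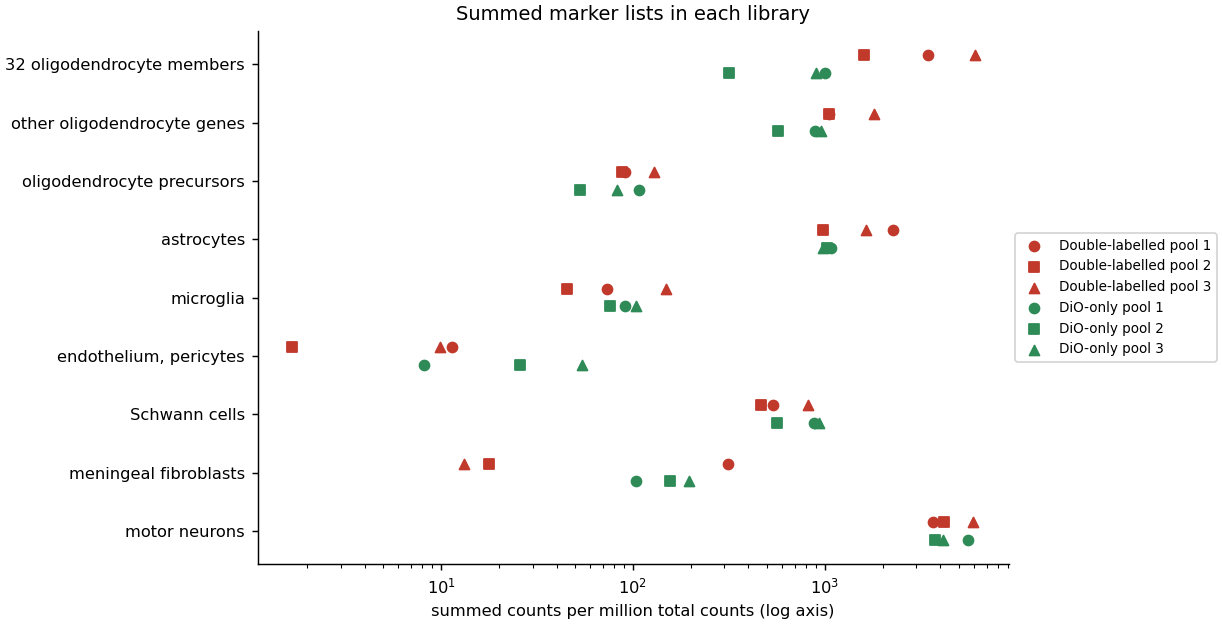
Summed marker lists in each library, in CPM of total counts on a log axis, with double-labelled pools in red and DiO-only pools in green. The 32 members lie apart between the groups, at 1609 to 6034 in double-labelled pools and 317 to 1002 in DiO-only pools. The other oligodendrocyte genes also lie apart, at 1047 to 1812 in double-labelled pools and 571 to 958 in DiO-only pools. The sums for precursors, microglia and motor neurons overlap.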

How the data were processed

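Polyadenylated RNA of 6 pools was amplified with the SMART-Seq HT kit for 20 cycles of PCR, per the labels' protocols, and no molecular identifiers are named. The deposited values are raw read counts per gene. The submitters' processing notes name FastQC, HISAT2, HTSeq and mm10, without versions or a strand setting. Series table and single files agree in every count. Coordinates (1-based) and exon lengths are from GENCODE M21 on GRCm38 (mm10), which matched 99.8% of the identifiers. Members and lists were chosen with earlier results of these data known. In R 4.3.3, filterByExpr by group kept 12954 genes, and TMM scaled the libraries. The dye groups were compared with edgeR 4.0.16 (robust quasi-likelihood F-test, Benjamini-Hochberg adjustment over all tested genes, threshold 0.05, two-sided), at a common coefficient of variation of 0.587. Each SE is the log2 fold change over the square root of F. Alternatives were other scalings and filters, DESeq2 1.42.0, limma 3.58.1, a replicate block and leaving out each library. Added after seeing the data were medians without *Mbp* and *Mobp* and counts without members that share exons or that passed the filter through double-labelled libraries alone. Members with a mean of at least 20 CPM and the transcription factors have values in every library. Other members are given by range and counts, except *Mag*, *Cldn11* and *Gsn*. Of other lists up to 4 tested genes of smallest p are named, and markers at 0. *Aldoc*, *S100b*, *Pdgfra*, *Cspg4*, *Pmp22*, *Aldh1l1* and *Csf1r* were named after their values were seen. Some genes of these lists are not reported here.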

Additional observations from a re-analysis of the deposited data

How the results depend on the processing

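Over all genes edgeR called 0 genes at an adjusted p under 0.05 (753 at an unadjusted p under 0.05), but 79 without the filter on low counts, 75 were called by DESeq2 and 23 by edgeR with a replicate block. Among the members these counts were 0, 4, 3 and 3. The 4 were *Mbp*, *Mobp*, *Ptgds* and *Apod*, and the others the first 3 of these. The replicate numbers are not said to be pairs. The correlations of same-numbered libraries' deviations were 0.0742, 0.228 and 0.203, against -0.190 to 0.0230 for differently numbered libraries. Whether same-numbered pools were paired was not tested, and the main fit takes them as unpaired. The median log2 fold change of the members was 1.17 without the filter, where all 32 members enter, and 1.33 to 1.88 when 1 library was left out. Without 1 library, 8 to 13 members had an unadjusted p under 0.05 upward, and the range was 3.40 to 6.39 for the ratio of summed CPM. The difference in the mature share, 17.9 points, was 7.95 points without *Mbp*. The log2 fold change turned negative with limma voom for *Mag* (-0.31), *Ugt8a* (-0.41) and *Tspan2* (-0.22), and with the replicate block for *Mag* (-0.68), *Cldn11* (-0.17) and *Tspan2* (-0.0385). When 1 library was left out it ran from -1.76 to 1.07 for *Mag*, from -1.17 to 1.39 for *Cldn11*, from -0.54 to 1.12 for *Ugt8a*, from -0.31 to 1.21 for *Hapln2*, from -0.58 to 1.09 for *Tspan2* and from -0.0215 to 1.48 for *Ppp1r14a*. The causes were not tested. Members under about 20 CPM rest on few counts.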

Other observations

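Cholesterol is a main lipid of myelin, and of its synthesis genes 0 passed over all genes. All 19 genes of the pathway were tested. Of these 3 had a log2 fold change above 0 and 16 below, where 51.3% of all tested genes were above 0. At an unadjusted edgeR p under 0.05, 3 were lower and 0 higher, where 2.63% of all tested genes were lower and 3.18% higher. The median was -0.24, against 0.02 over all tested genes. *Fdft1*, of squalene synthase, had 309, 338 and 386 CPM in double-labelled pools 1, 2 and 3, against 728, 428 and 640 CPM in DiO-only pools (log2 fold change -0.80 ± 0.31, SE; edgeR adjusted p = 0.742). *Mvk*, of mevalonate kinase, had 103, 122 and 217 CPM in double-labelled pools, against 317, 215 and 298 CPM in DiO-only pools, which overlap.

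Axonal partners of the myelin sheath, the neuronal proteins that face it at the node and its flanks, had 9 of 12 genes above a log2 fold change of 0, where 51.3% of all tested genes were. At an unadjusted edgeR p under 0.05, 2 were higher, where 3.18% of all tested genes were, and the median was 0.31. *Cntnap1*, of the axonal protein of the paranodal junction, had 91.8, 97.3 and 135 CPM in double-labelled pools, against 51.6, 53.1 and 77.0 CPM in DiO-only pools. *Kcna2*, of a potassium channel next to that junction, had 305, 622 and 256 CPM in double-labelled pools, against 202, 141 and 122 CPM in DiO-only pools. Both genes had groups that did not overlap, and neither passed over all genes (edgeR adjusted p = 0.751 and 0.617).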
